A study of Mus musculus with 2 samples.

Results

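The 8 genes described here are grouped around the packaging of DNA in the spermatid nucleus, in which all but Prm3 are known to act. They are the protamine genes Prm1, Prm2 and Prm3, the transition protein genes Tnp1 and Tnp2, and the genes of 3 further spermatid chromatin proteins, Hmgb4, H1fnt and Hils1. They were chosen by symbol, and all 8 were found among the 31053 genes of the count tables. The cells were germ cells of adult C57BL/6 mouse testis, with 1 library labelled Zfp541-/- and 1 wild-type (WT) library. The product of Zfp541 is a nuclear protein with zinc fingers that is made in spermatocytes. Per the labels' protocols, the testis was digested with enzymes, tetraploid germ cells were sorted by flow cytometry, and the cells were run on the 10x Chromium system with a kit that counts transcripts near their 3′ ends. The library titles, however, name whole testis. Each genotype had 1 library, so no difference here has a replicate check and none was tested. The labels do not say how many animals were used or which part of Zfp541 was deleted.

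In most cells DNA is wound around histones. After meiosis, as the round spermatid becomes an elongated one, histones are removed, transition proteins take their place, and protamines, which are small and rich in arginine, then compact the DNA into the sperm head. The genes are transcribed in round spermatids, and the mRNAs of the protamines and transition proteins are known to be stored in the cytoplasm before they are translated in elongating spermatids. Prm1 and Prm2 are the nuclear protamines. Prm3 lies in the same gene cluster and encodes an acidic protein that is found in the cytoplasm. H1fnt and Hils1 encode linker histone variants of spermatids, and Hmgb4 a protein of the high mobility group family.

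Prm1, Prm2, Prm3 and Tnp2 lie side by side on chromosome 16, all on the minus strand, from the start of Tnp2 at 10787936 to the end of Prm1 at 10805839 in GRCm38. Tnp1 lies on chromosome 1 (73015074 to 73015909), Hmgb4 on chromosome 4 (128260212 to 128260957), H1fnt on chromosome 15 (98255986 to 98257293) and Hils1 on chromosome 11 (94967593 to 94968456). Upstream sequences are shown for 6 genes, because genes of 1 cluster differed in their timing and because these short motifs are known from the control of protamine genes by the factor CREM and the TATA-binding machinery. The sequences are from RefSeq with the GRCm38.p6 build and run from 120 bases before to 10 bases after the transcription start. For Prm1 and Prm2 the RefSeq start lies inside the gene models used for the coordinates above, which end at 10805839 and 10796134. Capitals mark TGANNTCA, a relaxed form of the cyclic AMP response element that reads the same on both strands, and TATA between 40 and 20 bases before the start on the gene's strand. Overlapping matches to TATA are shown as 1 run. Their locations are chr11:94967473-94967602 on the plus strand for Hils1, and, on the minus strand, chr16:10790905-10791034 for Prm3, chr1:73015890-73016019 for Tnp1, chr16:10788646-10788775 for Tnp2, chr16:10792096-10792225 for Prm2 and chr16:10796814-10796943 for Prm1.
Hils1: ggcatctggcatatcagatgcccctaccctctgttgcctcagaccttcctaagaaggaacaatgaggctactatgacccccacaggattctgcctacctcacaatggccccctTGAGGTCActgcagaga
Prm3: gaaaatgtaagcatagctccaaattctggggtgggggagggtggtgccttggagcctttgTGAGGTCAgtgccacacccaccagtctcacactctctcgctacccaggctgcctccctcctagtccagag
Tnp1: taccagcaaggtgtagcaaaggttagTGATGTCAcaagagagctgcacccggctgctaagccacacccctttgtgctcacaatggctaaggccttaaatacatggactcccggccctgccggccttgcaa
Tnp2: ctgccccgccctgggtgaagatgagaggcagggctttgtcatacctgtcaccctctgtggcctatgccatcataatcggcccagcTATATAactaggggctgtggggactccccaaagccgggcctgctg
Prm2: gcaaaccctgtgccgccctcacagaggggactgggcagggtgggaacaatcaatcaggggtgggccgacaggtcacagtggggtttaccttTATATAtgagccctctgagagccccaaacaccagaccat
Prm1: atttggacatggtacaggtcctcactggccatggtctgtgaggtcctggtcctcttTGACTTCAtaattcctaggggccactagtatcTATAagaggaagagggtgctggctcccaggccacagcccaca

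In windows from 250 bases before to 50 bases after the start, 5 of the 8 genes had TGANNTCA, against 14.1% of 32851 such windows of the RefSeq table. Its first base lay 7 bases before the start in Hils1, 60 in Prm3, 64 in Prm1, 74 in Hmgb4 and 94 in Tnp1. TATA in the stated position was found in Tnp2, Prm2 and Prm1, against 5.34% of the windows. Neither motif was found in the window of H1fnt, which the table lists as H1f7. These matches describe the letters in the windows and do not show that a factor binds there.

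A stage name was given to 8833 cells of the library labelled Zfp541-/-, with 119675250 unique molecular identifiers (UMIs, which count RNA molecules), and to 8420 WT cells, with 108612781 UMIs. Cells were grouped by the authors' stage names, with 122 WT cells from spermatogonia to zygotene pooled as the cells before pachytene. The later stages were early, mid and late pachytene (eP, mP and lP), diplotene (D), a stage named MI and read here as meiosis I, round spermatids (RS.1, RS.2 and RS.3) and elongated spermatids (ES). WT spermatids numbered 333 in RS.1, 619 in RS.2, 393 in RS.3 and 111 in ES. None of the 8833 cells labelled Zfp541-/- was annotated as a spermatid, which allows a share of up to 0.0340%. Spermatids are haploid, and the sort for tetraploid cells can set their number in a library. The libraries shared 42 barcodes, of which 17 were annotated in both, and no doublet caller was run.

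The WT spermatid names were checked against marker genes that leave out the 8 genes. Summed over 7 markers of round spermatids, the level was 411 counts per 1000000 UMIs (CPM) in MI, 1046 CPM in RS.1, 3055 CPM in RS.2, 2898 CPM in RS.3 and 235 CPM in ES. Summed over 8 markers of elongating spermatids, it was 13.1, 351, 1027, 2793 and 5797 CPM in the same stages. Zfp541 itself was not lower in the library labelled Zfp541-/-: it had 81.9 CPM (79.4 to 84.5) there against 28.1 CPM (24.9 to 31.6) in WT in mid pachytene, and 70.6 CPM (68.2 to 73.1) against 35.8 CPM (31.8 to 40.2) in late pachytene. A 3′ tag outside the deleted part checks nothing, and the library is therefore named by its label throughout. Intervals in parentheses are 95% intervals for counting error only.

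Spermatid mRNA can be released from broken cells and captured with any other cell. Cells before pachytene are not known to make protamines, and in WT their counts were taken as the measure of such free RNA. These 122 cells held 194 UMIs of the 8 genes, and at most 8 in 1 cell. There were 68 UMIs of Prm1, 55 of Prm2, 29 of Tnp1, 26 of Tnp2, 6 each of Prm3 and Hils1, and 2 each of Hmgb4 and H1fnt. Of the 8 genes, 6 were above the limit of 3 UMIs that a count of 0 allows, against 57.4% of all genes. Their mixture was set beside that of the oldest WT spermatids. Prm1 made up 35.1% (28.4 to 42.2%) of the 194 UMIs in cells before pachytene and 36.1% of the UMIs of the 8 genes in RS.3 and ES together. For Prm2 the shares were 28.4% (22.1 to 35.2%) and 23.4%, for Tnp1 14.9% (10.2 to 20.8%) and 13.4%, and for Prm3 3.09% and 3.01%. Tnp2 was lower than in these spermatids, at 13.4% (8.95 to 19.0%) and 19.6%. In WT barcodes without a stage name the shares were 36.4% for Prm1, 31.9% for Prm2, 10.4% for Tnp1 and 14.6% for Tnp2.

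**Figure D1:**
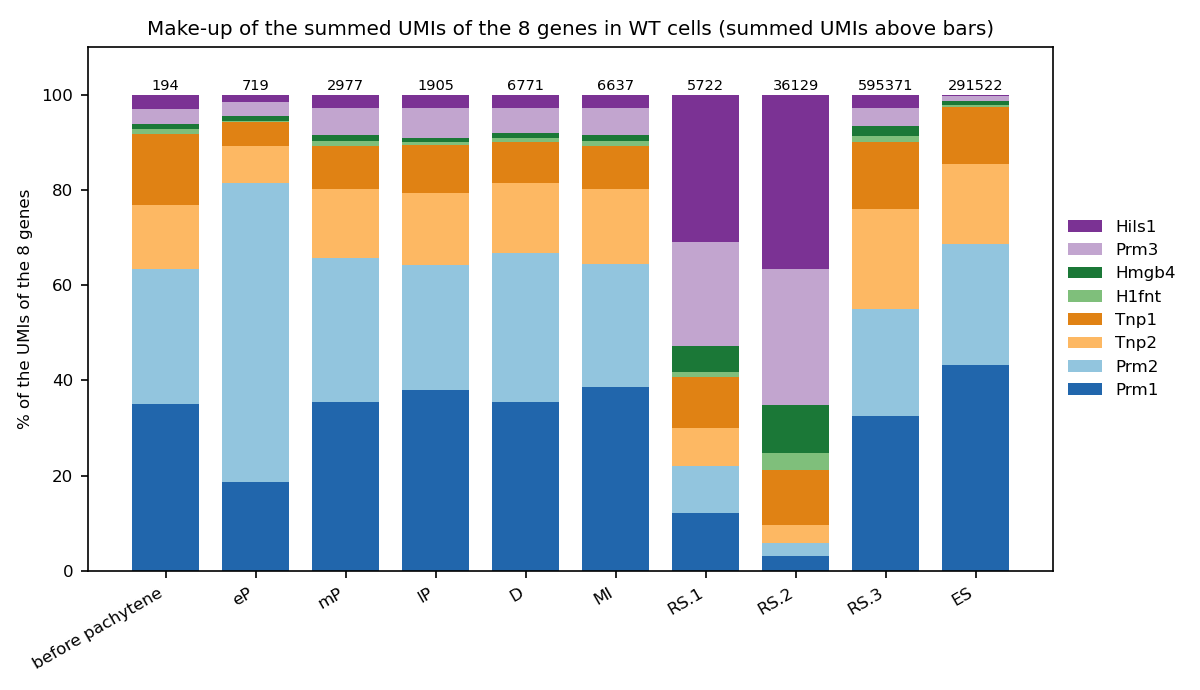
Stacked bars give each gene's percent of the summed UMIs of the 8 genes (y axis) in WT cell groups (x axis, early to late); the number above a bar is that sum. Bars from the cells before pachytene to MI have Prm1 and Prm2 as their largest parts, as the RS.3 and ES bars do. In eP Prm2 alone takes 62.9%. Hils1 and Prm3 together take 65.2% in RS.2 and 52.8% in RS.1.

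The WT spermatocytes were read against this level, in UMIs per cell, since free RNA in a droplet need not scale with the RNA of the cell. Prm1 had 1.10 UMIs per cell in MI and 0.557 before pachytene, a ratio of 1.95 (1.54 to 2.54). Tnp1 had 0.260 and 0.238 UMIs per cell, a ratio of 1.08 (0.753 to 1.65). Prm3 was the gene with the highest ratio, at 0.157 and 0.0492 UMIs per cell, or 2.94-fold (1.45 to 8.73). At least a 2-fold excess over the level before pachytene was seen for 1 of the 8 genes in mid pachytene (47.3% of all genes), 1 in late pachytene (49.6%), 3 in diplotene (52.9%) and 2 in MI (49.7%). That gene was Prm3 in both pachytene stages, joined by Prm2 and Tnp2 in diplotene and by Tnp2 in MI. On the CPM scale no gene reached 2-fold in any of these 4 stages, and in MI each of the 8 was below its level before pachytene. The depth of the cells moved with these values: the median was 13673.5 UMIs in MI and 2227 before pachytene. Within diplotene, the 559 deepest cells had 5.08 UMIs of the 8 genes per cell and the 560 shallowest had 1.85, while the levels were 205 and 210.5 CPM. Within MI, the 586 deepest cells had 3.46 UMIs of the 8 genes per cell and the 586 shallowest had 2.24, while the levels were 168 and 225 CPM. The share of cells with a Prm1 UMI was 61.8% in MI and 41.0% before pachytene, and 13.4% and 29.0% after cells were thinned to 2000 UMIs, which left out 53 of the 122 cells before pachytene and 0 of MI. A low transcription in spermatocytes and free RNA cannot be told apart from these values.

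In early pachytene 1 cell held most of the Prm2 UMIs. Prm2 had 452 UMIs in the 230 WT cells of this stage, of which 365 came from a cell of 12394 UMIs in cluster 16. The same cell had 19 UMIs of Prm1, 3 of Prm3, 2 of Tnp2 and 0 of the other 4 genes. Without it, the other early pachytene cells held 87 UMIs of Prm2.

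Through WT spermatids the 8 genes came to take a large part of the detected RNA. Their share of all UMIs was 0.0195% in MI, 0.0911% in RS.1, 0.388% in RS.2, 7.65% in RS.3 and 34.3% in ES. The sum per cell was 2.83, 17.2, 58.4, 1515 and 2626 UMIs. Relative to their own peaks, Hils1, Prm3, Hmgb4 and H1fnt came earlier than Tnp1, Tnp2, Prm2 and Prm1, and these are called the early and the late group below. The line between the groups depends on the measure, and not all of the early group was first by each measure. RS.1, for example, was 4.29-fold above MI for H1fnt and 5.46-fold for Tnp1. The stages were compared with the 2-fold rule on CPM. From MI to RS.1, 6 of 8 genes were at least 2-fold higher in the later stage, against 22.9% of all genes. From RS.1 to RS.2 it was 6 of 8, against 23.4%. From RS.2 to RS.3 it was 7 of 8, against 20.3%, and from RS.3 to ES 4 of 8, against 14.1%. In all, 7 of the 8 genes had their highest WT level in ES, against 8.46% of all genes.

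Hils1, the linker histone variant named for spermatids, came first. Its level was 5.59 CPM (4.82 to 6.44) in MI, 283 CPM (269.6 to 296) in RS.1, 1421 CPM (1397 to 1445) in RS.2, 2081 CPM (2049 to 2113) in RS.3 and 1255 CPM (1181 to 1333) in ES. RS.1 was 50.4-fold above MI, and RS.3 was only 1.46-fold above RS.2. Hils1 was the 1 member lower in ES than in RS.3, at 0.603-fold on CPM. The median cell had 3, 16, 40 and 8 Hils1 UMIs in RS.1, RS.2, RS.3 and ES.

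Prm3 followed the same early course. It had 10.8 CPM (9.72 to 12.0) in MI, 199 CPM (188 to 210) in RS.1, 1108 CPM (1087 to 1129.9) in RS.2, 3023 CPM (2984 to 3062) in RS.3 and 3710 CPM (3581 to 3842) in ES. The median cell had 2, 11, 57 and 24 UMIs in the 4 spermatid stages. Prm3 lies within the same cluster as Prm1, Prm2 and Tnp2, yet RS.1 was already 18.4-fold above MI for Prm3, against 1.46-fold for Prm1, 1.77-fold for Prm2 and 2.42-fold for Tnp2. The MI level, which may be free RNA, enters these folds. Per cell it was 0.157 UMIs for Prm3, 1.10 for Prm1, 0.731 for Prm2 and 0.442 for Tnp2. In RS.1 the values were 3.75, 2.08, 1.68 and 1.39. Hmgb4, at 19.3-fold on CPM, had 0.0375 UMIs per cell in MI and 0.946 in RS.1.

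Hmgb4 had 2.59 CPM (2.08 to 3.19) in MI, 50.2 CPM (44.8 to 56.0) in RS.1, 389 CPM (376 to 402) in RS.2, 1545 CPM (1517 to 1573) in RS.3 and 2691 CPM (2582 to 2804) in ES. Each step up to RS.3 was at least 3.97-fold. H1fnt, the other linker histone variant, came later than Hils1. It had 1.97 CPM (1.53 to 2.50) in MI, 8.44 CPM (6.32 to 11.0) in RS.1, 137 CPM (129.6 to 145) in RS.2, 1000.0 CPM (978 to 1022) in RS.3 and 1526 CPM (1444 to 1611) in ES. Its highest step was from RS.1 to RS.2, at 16.1-fold, where the median cell still had 0 UMIs in both stages. The median cell had 10 H1fnt UMIs in ES and 16 in RS.3.

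The transition protein genes did not move as a pair in the earlier round spermatids. Tnp1 had 17.9 CPM (16.5 to 19.4) in MI, 97.8 CPM (90.2 to 106) in RS.1, 449 CPM (435 to 463) in RS.2, 10769 CPM (10696 to 10842) in RS.3 and 41165 CPM (40735 to 41599) in ES. Tnp2 had 30.4 CPM (28.6 to 32.4) in MI, 73.6 CPM (67.0 to 80.6) in RS.1, 149 CPM (141 to 157) in RS.2, 16039.7 CPM (15951 to 16129) in RS.3 and 57577 CPM (57068 to 58089.5) in ES. From RS.1 to RS.2 the step was 4.59-fold for Tnp1 and 2.02-fold for Tnp2, and from RS.2 to RS.3 it was 24.0-fold for Tnp1 and 108-fold for Tnp2. In RS.3 the median cell had 79 UMIs of Tnp1 and 83 of Tnp2, and in RS.2 it had 3 of Tnp1 and 1 of Tnp2.

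The nuclear protamine genes had the smallest steps of the 8 genes from RS.1 to RS.2 and the largest from RS.2 to RS.3. Prm1 had 75.5 CPM (72.7 to 78.5) in MI, 110.5 CPM (102 to 119) in RS.1, 120.4 CPM (113 to 128) in RS.2, 24934 CPM (24824 to 25046) in RS.3 and 148398 CPM (147580 to 149220) in ES. Prm2 had 50.4 CPM (48.0 to 52.8) in MI, 89.3 CPM (82.1 to 97.0) in RS.1, 107 CPM (100.2 to 114) in RS.2, 17151 CPM (17059 to 17243) in RS.3 and 86886 CPM (86260 to 87515) in ES. From RS.1 to RS.2 the steps were 1.09-fold for Prm1 and 1.19-fold for Prm2, and the interval of the Prm1 step on the log2 scale, -0.01 to 0.26, includes 0. From RS.2 to RS.3 they were 207-fold and 161-fold. The median cell of RS.1 and of RS.2 had 1 UMI of either gene, as against 113 of Prm1 and 89 of Prm2 in RS.3 and 979 and 540 in ES.

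The means of the early stages hid a few cells with many protamine molecules. At least 10 Prm1 UMIs were found in 15 of 619 cells in RS.2 and 8 of 333 in RS.1, with a highest cell of 136 in RS.2 and 150 in RS.1. In RS.1 the 83 deepest cells, which held 49.7% of all UMIs of the stage, had 76.5% of the Tnp1 UMIs, 75.5% of those of H1fnt, 68.6% of those of Tnp2 and of Hmgb4, and between 58.4% and 61.0% of those of the other 4 genes. On CPM these 83 cells had 150.4 CPM of Tnp1, and the other 250 cells had 45.6 CPM. With the 83 cells left out, a comparison added after the data were seen, Tnp2 was 0.60 above MI on the log2 scale and no longer reached 2-fold, and Tnp1 was 1.35 above MI, against 2.45 with all cells. Hils1 kept 233 CPM in the other 250 cells. H1fnt had 4.12 CPM there, on 13 UMIs, against 8.44 CPM in all RS.1 cells and 1.97 CPM in MI. Whether these deep cells hold more than 1 cell was not tested.

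**Figure D2:**
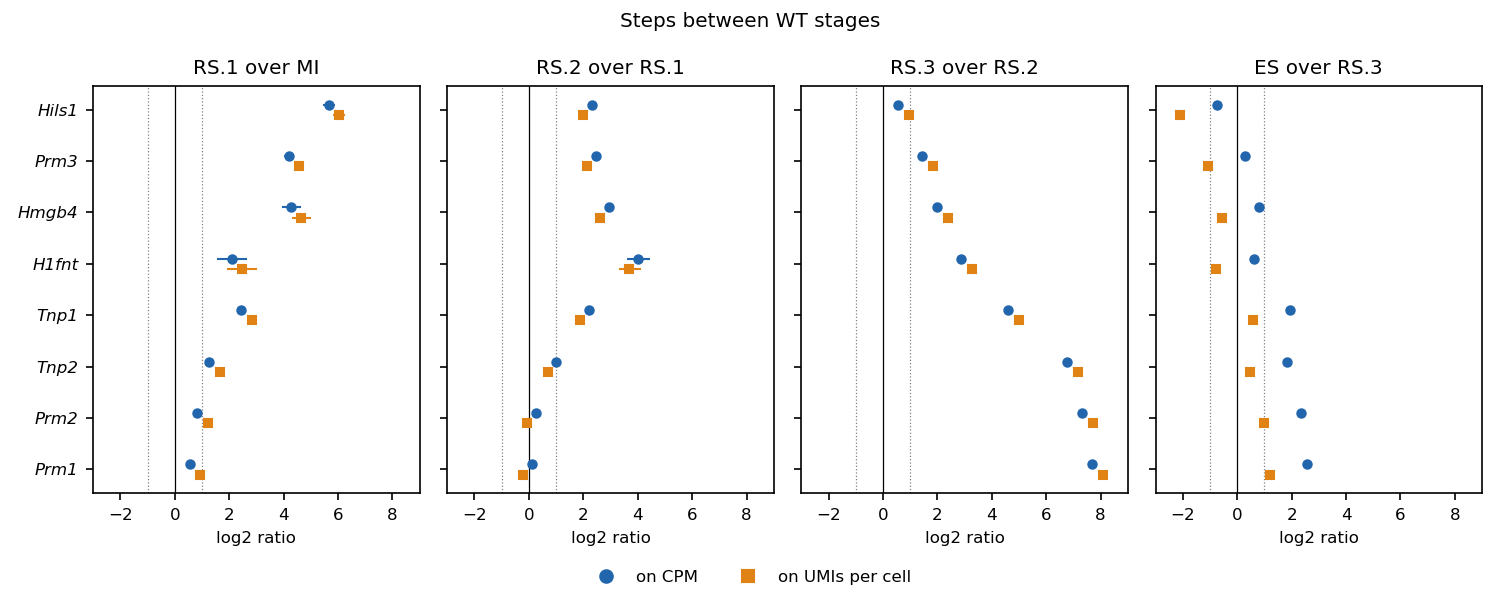
Points give the log2 ratio of the later over the earlier WT stage (x axis) for each gene (y axis), on CPM (blue circles) and on UMIs per cell (orange squares), with 95% counting intervals and dotted lines at 2-fold. The step to RS.3 grows down the panel, at 1.46-fold for Hils1 and 207-fold for Prm1 on CPM, and the step to ES changes sign between the scales for Prm3, Hmgb4 and H1fnt.

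In ES the scale decides what is seen. The median cell had 6480 UMIs in ES and 19631 in RS.3, and the 8 genes themselves took 34.3% of the ES total. On CPM 7 of 8 genes were higher in ES than in RS.3, at 5.95-fold for Prm1, 5.07-fold for Prm2, 3.82-fold for Tnp1 and 3.59-fold for Tnp2, and at 1.74-fold for Hmgb4, 1.53-fold for H1fnt and 1.23-fold for Prm3. On a total without the 8 genes, 6 of 8 were at least 2-fold higher in ES, with Hmgb4 and H1fnt past 2-fold, at log2 ratios of 1.29 and 1.10, against 0.80 and 0.61 on CPM. On UMIs per cell Prm1 was 2.30-fold, Prm2 1.96-fold, Tnp1 1.48-fold and Tnp2 1.39-fold higher in ES, whereas Hmgb4 was 0.674-fold, H1fnt 0.590-fold, Prm3 0.475-fold and Hils1 0.233-fold. By UMIs per cell 1 of 8 genes was at least 2-fold higher in ES, against 4.93% of all genes, and 2 of 8, Prm3 and Hils1, were at least 2-fold lower, against 76.7% of all genes. By that scale 4 of 8 genes had their highest level in ES. Prm1, Prm2, Tnp1 and Tnp2 were thus higher on both scales.

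The order was finer along the authors' pseudotime, a deposited ordering of cells that comes from expression and may have used these genes. The 1456 WT spermatids were cut into 20 bins of 72 or 73 cells. Hils1 reached 10% of its highest value per cell in bin 3, Prm3 in bin 5, Hmgb4 in bin 10 and H1fnt in bin 12. Tnp1, Tnp2 and Prm2 did so in bin 16 and Prm1 in bin 17. The point of 50% was reached in bin 11 for Hils1, bin 12 for Prm3, bin 16 for Hmgb4 and H1fnt, bin 17 for Tnp1, Tnp2 and Prm2, and bin 18 for Prm1. By the median cell of a bin H1fnt was not earlier than Tnp1. The median first reached 4 times the mean per cell of MI in bin 11 for H1fnt and bin 9 for Tnp1. The bin means rose sooner: H1fnt had 0.342 UMIs per cell in bin 4, against 0.0286 in MI. Tnp1 had 1.60 in bin 3, against 0.260 in MI. A median of 10 UMIs was first reached in bin 14 for H1fnt and bin 12 for Tnp1. That median was reached in bin 12 for Hmgb4 and bin 14 for Tnp2 as well. For the other genes it was bin 6 for Hils1, bin 10 for Prm3, bin 15 for Prm1 and bin 16 for Prm2. By UMIs per cell the highest bin was 18 for the early group and 19 for the late group. In the last bin, on the same scale, Hils1 was at 13.0% of its highest value, H1fnt at 34.5%, Prm3 at 38.2% and Hmgb4 at 44.3%. Tnp2 was at 53.3%, Tnp1 at 62.1%, Prm1 at 80.3% and Prm2 at 86.6%. Relative to its own peak, each gene of the early group was thus lower in the last bin than each gene of the late group. On CPM this decline was not seen for 6 genes, Prm1, Prm2, Prm3, Tnp1, Tnp2 and Hmgb4, which were highest in bin 20. H1fnt was highest in bin 19 and at 98.2% of that in the last bin, and Hils1 was highest in bin 16 and at 40.7%.

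**Figure D3:**
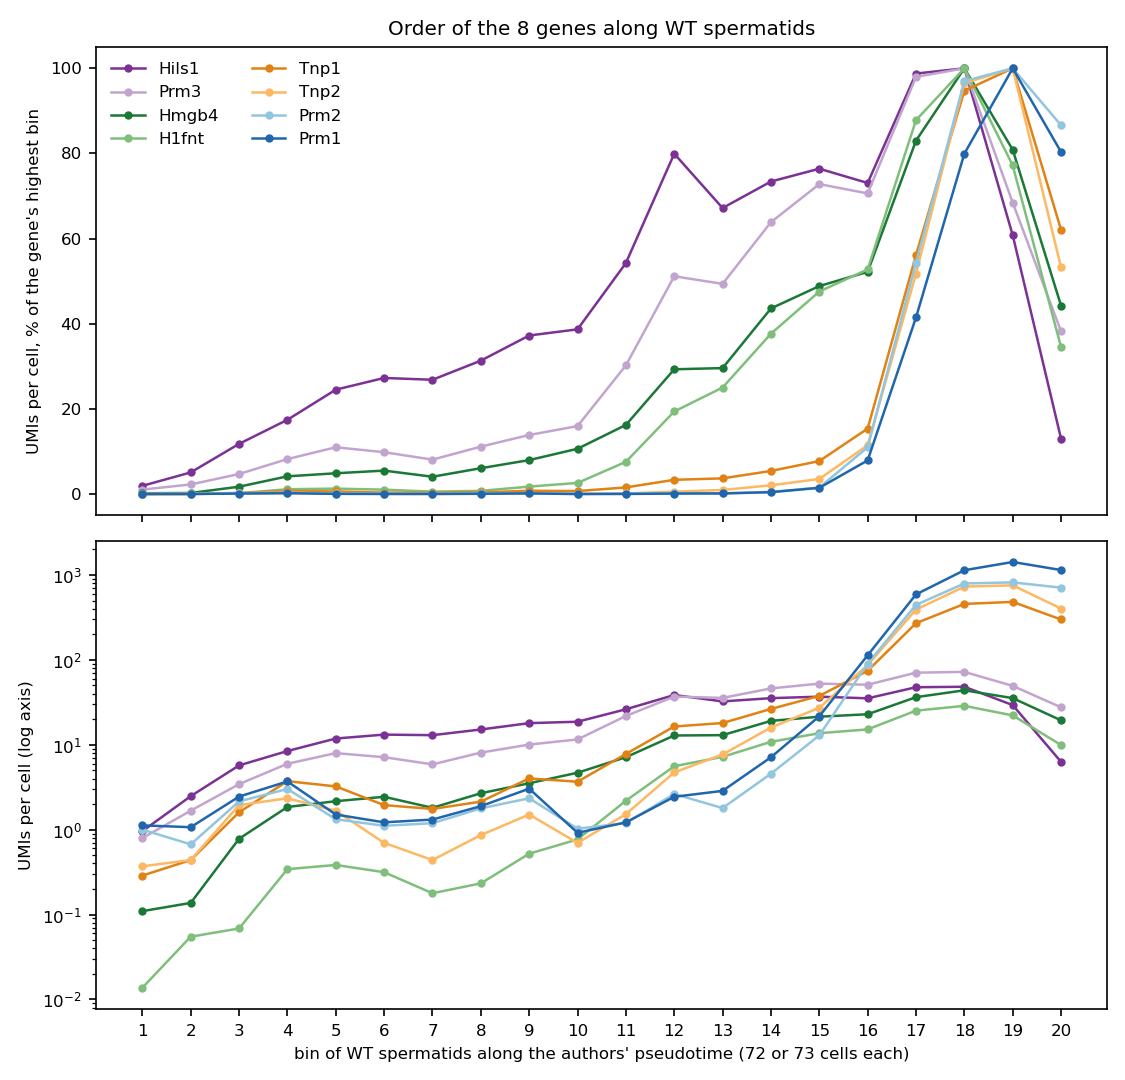
Lines give the mean UMIs per cell of each gene in 20 bins of WT spermatids along the authors' pseudotime (x axis), as percent of the gene's own highest bin (top) and on a log axis (bottom). Hils1 and Prm3 climb from the first bins, Prm1 passes 50% only in bin 18, and Hils1 is at 13.0% in the last bin.

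The comparison between genotypes addresses whether spermatid genes are detected in cells labelled Zfp541-/-. The library labelled Zfp541-/- had 42 UMIs of the 8 genes in all 8833 cells, against 947947 UMIs in the 8420 WT cells, and it had no cells of the stages where WT levels were high. Of the 42, 39 were Tnp1, and there was 1 each of Prm2, Tnp2 and H1fnt. Prm1, Prm3, Hmgb4 and Hils1 were not found, which allows up to 3 UMIs each.

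In mid pachytene all 8 genes had 0 UMIs in the 2501 cells labelled Zfp541-/-. In the 1207 WT cells of this stage Prm1 had 1053 UMIs, Prm2 905, Tnp2 429, Tnp1 269, Prm3 173, Hils1 82, Hmgb4 38 and H1fnt 28. Prm1 was at least 1762-fold lower and H1fnt at least 46.8-fold lower in the library labelled Zfp541-/-, taking the limit of 3 UMIs per library. In late pachytene 1 UMI, of Prm2, was found in 1945 cells labelled Zfp541-/-, against 501 in 827 WT cells, a log2 ratio of -10.94 with an interval of -16.83 to -9.04. Prm1 was at least 1418-fold lower there, with 0 UMIs against 724 in WT, and H1fnt at least 27.4-fold lower, with 0 against 14. All 8 genes were at least 2-fold lower in mid pachytene, against 18.8% of all genes, and in late pachytene, against 22.2%. The median log2 ratio of the 8 was -11.08 in mid and -10.70 in late pachytene, where it was 0.08 and 0.03 over all genes. Since most of these genes were at 0, the fitted medians depend on the 0.5 counts added.

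The WT side of this comparison stood near the free RNA level. Per cell, WT mid pachytene was 0.923-fold the level before pachytene for Tnp1, 1.55-fold for Prm1 and 2.70-fold for Prm3. After the WT level before pachytene was subtracted per cell, 7 of 8 genes in mid pachytene and 5 of 8 in late pachytene still had over 3 UMIs in WT and were at least 2-fold lower in cells labelled Zfp541-/-, against 12.5% and 15.8% of all genes. The subtracted level rests on 2 UMIs each for Hmgb4 and H1fnt and 6 for Hils1. WT mid pachytene was 1.56-fold (0.496 to 16.4) that level for Hmgb4, 1.15-fold (0.357 to 12.3) for H1fnt and 1.28-fold (0.608 to 3.87) for Hils1. In late pachytene Hils1 was at 1.19-fold (0.549 to 3.64). What was left of these genes is thus within counting error. On CPM nothing would be left of any of the 8, since WT mid pachytene was at 0.304-fold to 0.887-fold, and late pachytene at 0.235-fold to 0.751-fold, the level before pachytene. By the per-cell subtraction Tnp1 had none left in either stage. In late pachytene H1fnt and Hmgb4 were under 3 as well. The cells labelled Zfp541-/- were the deeper ones, with medians of 18665 UMIs in mid and 23690 in late pachytene, against 7945 and 9210 in WT. Before pachytene, 0 Prm1 UMIs were found in 3210 cells labelled Zfp541-/-, against 68 in 122 WT cells. How much of the difference comes from spermatid RNA present in the WT suspension and how much from the spermatocytes cannot be told apart.

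The 39 Tnp1 UMIs of the library labelled Zfp541-/- were all in spermatogonia. They comprised 29 UMIs in 26 of 218 cells of the first spermatogonial stage, or 11.9% of them (7.94 to 17.0%, Clopper-Pearson), 9 in 9 of 415 cells of the second and 1 in 540 cells of the third. The median depth of the 26 cells was 10271.5 UMIs, and the most in 1 cell was 2. In the first stage 0 UMIs were found for the other 7 genes. The gene 1700027A15Rik, which overlaps Tnp1 on the opposite strand, had 0 UMIs in the whole library. This first stage held 8 WT cells with 10 UMIs of the 8 genes, too few to compare.

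**Figure D4:**
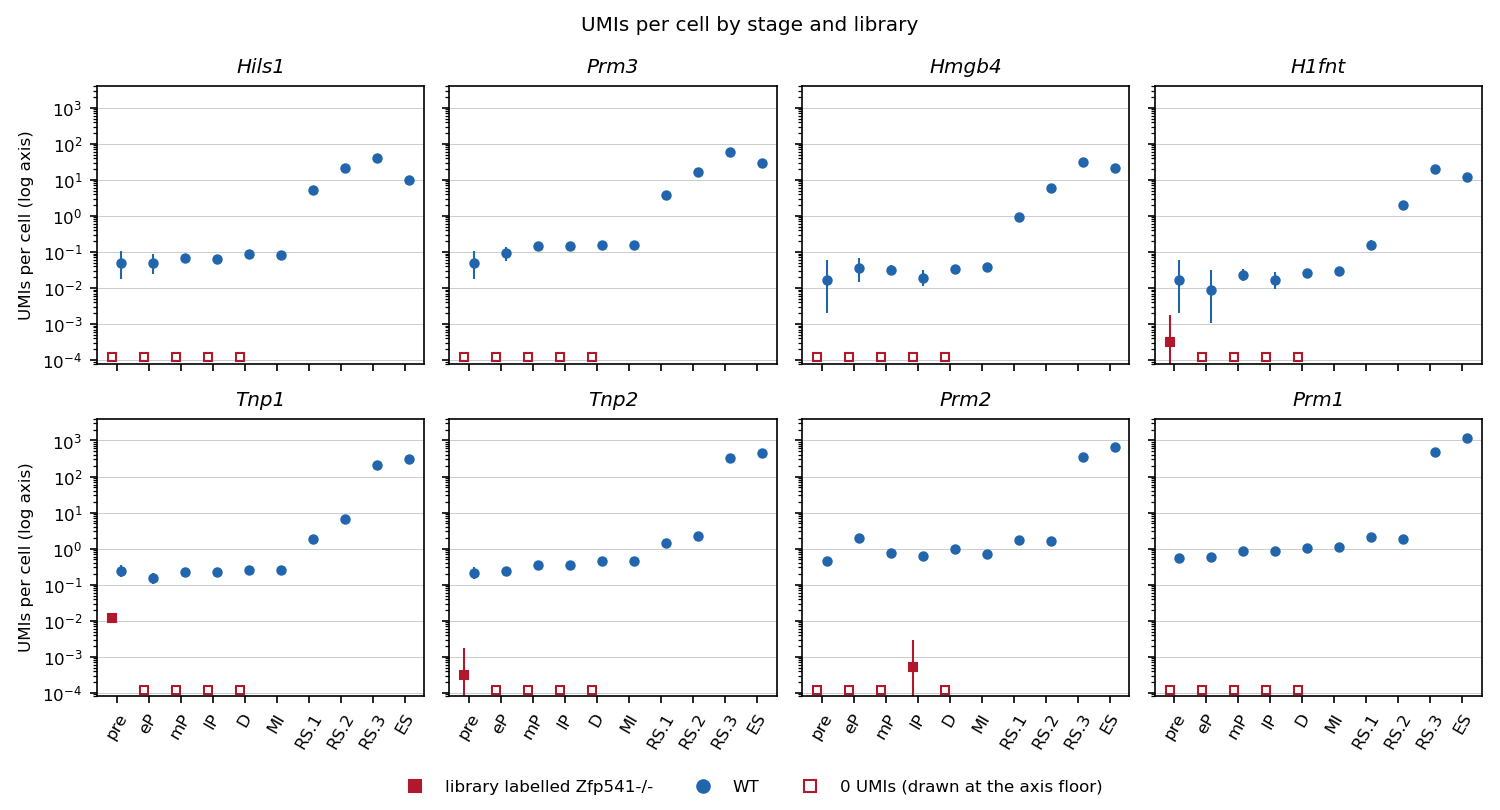
Mean UMIs per cell (log y axis) by stage (x axis, pre for the cells before pachytene) for the library labelled Zfp541-/- (red squares) and WT (blue circles), with 95% Poisson intervals; open squares stand for 0 UMIs. The library labelled Zfp541-/- has cells as far as diplotene and is at 0 in most stages, while in WT each gene is higher in RS.3 and ES than in any stage up to MI. Its diplotene group has only 13 cells, where 0 UMIs allows up to 0.284 UMIs per cell.

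Genes of related function were read from 5 lists. Regulators of protamine transcription did not follow the 8 genes as a group: from RS.1 to RS.3, 3 of 10 were at least 2-fold higher in RS.3, against 30.1% of all genes, and 4 were at least 2-fold lower, against 42.8%. Their median log2 ratio was -0.45, and that of all genes -0.70. Fhl5, a partner of CREM, was the member closest in course, at 44.7 CPM in RS.1, 299 in RS.2, 1167 in RS.3 and 379 in ES. Crem itself, chosen after its values were seen, had its highest level in RS.2, at 578 CPM, and Tbpl1, a relative of the TATA-binding protein, in MI, at 1241 CPM. Between genotypes in late pachytene, 3 of 10 were at least 2-fold lower and 1 was at least 2-fold higher (22.2% and 20.4% of all genes). Fhl5 had 2 UMIs in cells labelled Zfp541-/- and 17 in WT, a log2 ratio of -5.36 (-8.80 to -3.57). Kif17, which is known to carry a CREM cofactor, had 0.213 CPM in cells labelled Zfp541-/- and 1.13 CPM in WT. Taf7l had 3.29 CPM against 0.251 CPM, and Rfx2, a factor for ciliary and spermatid genes, 96.2 CPM against 58.7 CPM.

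Genes for storage and translation of spermatid mRNA were near their WT level in late pachytene, with 0 of 14 at least 2-fold lower (22.2% of all genes) or higher (20.4%) and a median log2 ratio of -0.13. From RS.1 to RS.3, 1 of 14 was at least 2-fold higher, against 30.1% of all genes, and 5 were at least 2-fold lower, against 42.8%. Ybx1 and Ybx3, cold shock proteins that bind mRNA, had 3625 and 2793 CPM in cells labelled Zfp541-/- and 2759 and 3144 CPM in WT. Elavl1 and Tdrd6 had log2 ratios of -0.76 and -0.56, and Paip2 and Pabpc1, of the poly(A)-binding protein system, 0.89 and 0.75. In WT spermatids Paip2 was at 192 CPM in RS.1, 492 in RS.2, 789 in RS.3 and 1029 in ES.

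Among genes of histone removal and compaction, 4 of 18 were at least 2-fold higher in RS.3 than in RS.1, against 30.1% of all genes, and 7 at least 2-fold lower, against 42.8%. Tssk6, a kinase needed for compaction, had a course like that of Prm1, with 6.21 CPM in RS.1, 6.66 in RS.2, 789 in RS.3 and 2641 in ES. In late pachytene it had 33 UMIs in cells labelled Zfp541-/- and 41 in the fewer WT cells, a log2 ratio of -2.86 (-3.57 to -2.17). Zmynd15, a repressor in spermatids, was at -1.39, whereas Top2b, a DNA topoisomerase, was at 2.75 and Phf7, a ubiquitin ligase for histones, at 0.76. Ppp1cc, a phosphatase of spermatids, was at -0.10. In all, 4 of 18 were at least 2-fold lower in late pachytene, against 22.2% of all genes, and 1 was at least 2-fold higher, against 20.4%.

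The list of histone variants held testis variants and general ones, such as H3f3a, H3f3b, H2afx, H2afz, H1f0 and H1fx. Of these, 3 of 11 were at least 2-fold higher in RS.3 than in RS.1, against 30.1% of all genes, and 7 at least 2-fold lower, against 42.8%. 1700024P04Rik, listed in RefSeq as H2bl1, a spermatid variant of histone H2B, had 61.9 CPM in RS.1, 270.5 in RS.2, 1177 in RS.3 and 2158 in ES. H3f3b, which encodes histone H3.3, was at 178 CPM in ES and 3290.2 CPM in RS.3, and H2afz was at 114 CPM in ES and 2526 CPM in RS.1. In late pachytene Hist1h1t, the linker histone of spermatocytes, had 23.3 CPM in cells labelled Zfp541-/- and 105 CPM in WT, a log2 ratio of -2.17 (-2.30 to -2.04), and 1700024P04Rik had -4.01. H1f0 was higher by 1.45 and H3f3a by 0.21 on the log2 scale. For this list 2 of 10 measured genes were at least 2-fold lower, against 22.2% of all genes, and 1 was at least 2-fold higher, against 20.4%.

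Other genes of elongating spermatids were listed for their late expression, and they include all the elongating spermatid markers that checked the stage names above. Their rise is therefore not independent of that choice. Of these 14 genes, 12 were at least 2-fold higher in RS.3 than in RS.1, against 30.1% of all genes. Their median log2 ratio was 2.72, against 6.83 for the 8 genes. In late pachytene 6 of 9 measured genes were at least 2-fold lower in cells labelled Zfp541-/-, against 22.2% of all genes, with a median of -5.19. Tssk2, a spermatid kinase, had 0 UMIs there and 37 in WT, and was at least 72.4-fold lower. Smcp, of the mitochondrial capsule, had 0 and 32 UMIs and was at least 62.7-fold lower. Both counted as measured only through WT, at 4.64 CPM for Tssk2 and 4.01 CPM for Smcp. Summed over the elongating spermatid markers, the level was 16.9 CPM in WT late pachytene and 40.2 CPM in WT cells before pachytene. Low transcription in spermatocytes and free RNA cannot be told apart for these genes either. Odf2 and Dkkl1, which spermatocytes also express at high levels, had log2 ratios of -0.02 and 0.03. In WT spermatids Odf2 was at 3123 CPM in ES and 685 CPM in RS.1.

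For each of the 8 genes the gene most like it was taken from the Pearson correlation of log2(CPM + 1) over the 10 WT points from before pachytene to ES, among 11714 genes. These r values describe 10 points of 1 library, which share their depth and free RNA, and carry no p. The nearest gene was Paqr5 for Prm1 (0.999), 1700027A15Rik for Prm2 (0.997), Spert for Prm3 (0.998), Slfnl1 for Tnp1 (0.992), Gm34408 for Tnp2 (0.994), Morn3 for Hmgb4 (0.997), Habp4 for H1fnt (0.994) and Spag4 for Hils1 (0.999). Paqr5 had 1.11 CPM in RS.1, 1.50 in RS.2, 410.1 in RS.3 and 1712 in ES. Spag4, like Hils1, was highest in RS.3, with 728 CPM in ES and 1119.7 CPM in RS.3. Among the 8 genes themselves r was 0.995 between Prm3 and Hmgb4 and 0.990 between Prm1 and Tnp2, and lowest, at 0.671, between Prm2 and Hils1. The early pachytene point of Prm2 includes the 365 UMIs of 1 cell, and its r values were not computed without that cell.

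Genes on the opposite strand overlap 4 of the 8 genes in GENCODE M21, and no source used here gives the strand setting of the counting. For Tnp1 the overlapping gene 1700027A15Rik had 7896 UMIs in WT spermatids, against 123525 of Tnp1 itself. For Hils1 it was Sgca with 589 against 32258, for Hmgb4 Csmd2 with 24 against 18238, and for Prm1 Gm46563 with 10 against 321812. The counts of 1700027A15Rik are therefore uncertain beside Tnp1.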

How the data were processed

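The deposited matrix of each library gives, per the file headers, whole-number counts of UMIs per gene and barcode, with no normalisation. The mm10 genome, Cell Ranger 3.1.0 and Seurat 3.2.0 are named, per the submitters' processing notes. The authors' deposited cell table gives the stage, the cluster, the percent of mitochondrial UMIs and a pseudotime score. All 17253 annotated cells were used, and no source used here gives the filters that led to them.

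For each gene, UMIs of all cells of a stage in a library were added up and expressed as CPM. Log2 ratios were taken after adding 0.5 counts to each sum. No test was possible with a single library of each genotype, and a difference was counted at 2-fold. Its background is the percent of all genes with 1 CPM or more in the higher group that passed the same fold, and in ES 1 UMI meets that minimum. Intervals (95%) are exact Poisson for sums, Clopper-Pearson for shares and conditional binomial for ratios, and cover counting error only. A count of 0 allows up to 3 counts. Scripts ran in Python 3.11.15 with numpy 2.4.6, scipy 1.17.1 and pandas 2.3.3, and were tested on simulated data. All 8 genes are named, with the most similar gene of each, and from each list the genes with the 2 highest spermatid levels and the 2 largest log2 ratios each way in late pachytene. The genes and lists were chosen with earlier results of these data known.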

Additional observations from a re-analysis of the deposited data

How the results depend on the processing

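No paired analysis was possible because each genotype had 1 library. Of 75 recounts of the 12 counts of genes under other settings, 57 were within 1.5 times the count reported. Both counts of genes lower in the library labelled Zfp541-/- were 5 in place of 8 with only genes of at least 10 CPM, and the late pachytene count was also 5 after WT free RNA was subtracted. By UMIs per cell, the count of genes higher in ES than in RS.3 was 1 in place of 4, and that of genes highest in ES 4 in place of 7. The counts of genes 2-fold above the level before pachytene, 1 in mid and late pachytene, 3 in diplotene and 2 in MI, were all 0 on CPM, on a total without the 8 genes and mitochondrially encoded genes, and after thinning. The MI count was 1 with 1 count added to each sum. The cause was not tested. With median-of-ratios scaling, the ratios between genotypes move by 0.15 in mid and 0.11 in late pachytene on the log2 scale, and no count changed. Of 308 log2 ratios of single genes that were recomputed, 43 moved by 1 or more or crossed the 2-fold line. These included 17 after thinning, 10 after WT free RNA was subtracted and 10 on UMIs per cell. Among the ratios past 2-fold, 0 changed sign. Leaving out the 83 deepest cells of RS.1 and subtracting the MI level from spermatids were chosen after seeing the data. Depth limits H1fnt and Hmgb4 most, with 14 and 16 UMIs in WT late pachytene.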

Other observations

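Barcodes without a stage name also held these genes in WT. In the library labelled Zfp541-/-, 2747 such barcodes with a median of 1072 UMIs held 10 UMIs of Tnp1 and 0 of the other 7 genes. In WT, 4219 such barcodes with a median of 4400 UMIs held 230421 UMIs of Prm1, or 10070 CPM, 202332 of Prm2 and 92416 of Tnp2. The Prm1 level there was above the 110.5 CPM of RS.1 and below the 24934 CPM of RS.3. The share of mitochondrially encoded UMIs in the median WT cell was 0.774% in MI, 0.619% in RS.1, 0.180% in RS.2, 0.0153% in RS.3 and 0.0175% in ES.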
